A study of Homo sapiens with 27 samples.

Results

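The comparison described here was oncostatin M (OSM) added on top of TGFB in MCF10A cells: the 3 libraries labelled OSM+TGFB were set against the 3 libraries labelled TGFB, 6 of the 27 libraries of the series, chosen by their labels and by no measured value. MCF10A is an established, non-tumorigenic line of human breast epithelium. Cells were seeded at 520000 per well plate on collagen in growth medium that held 20 ng/ml EGF, moved to medium free of growth factors after 6 h and kept there for 18 h. The TGFB group then received 10 ng/ml TGFB, and the OSM+TGFB group received 10 ng/ml TGFB with 10 ng/ml OSM, both for 24 h and both without EGF. The groups PBS (vehicle) and OSM (10 ng/ml), also of 3 libraries at 24 h, were used to ask whether the response to OSM differed when TGFB was present, and 4 groups with 10 ng/ml EGF (EGF, EGF+OSM, EGF+TGFB and EGF+OSM+TGFB) were used for values set side by side. The remaining group, T0 (3 libraries of starved cells at 0 h), entered the shared fit of all 27 libraries and no comparison. All groups come from 1 cell line, and the labels number the replicates without saying whether they were separate cultures, so the p-values measure only the spread between these libraries, which may be technical.

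OSM is a cytokine of the interleukin-6 family. It binds the receptor chain OSMR together with the shared chain encoded by IL6ST, the associated Janus kinases phosphorylate STAT3 and other STAT factors, and the same receptor also feeds the ERK pathway. Feedback inhibitors such as SOCS3 are themselves STAT3 targets. TGFB binds a pair of receptor kinases, TGFBR2 and TGFBR1, which phosphorylate SMAD2 and SMAD3; in epithelial cells this pathway is known for growth arrest, for matrix production and for the epithelial to mesenchymal transition. Both ligands are used in culture to change the state of mammary epithelial cells.

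The 6 libraries held between 35.3 M and 40.1 M estimated counts each. Counts of the 10 most abundant rows made up 10.2% to 10.5% of an OSM+TGFB library and 7.32% to 7.96% of a TGFB library. Counts of the mitochondrial genome made up 1.4% to 1.49% against 2.24% to 2.74%. The part of these shifts in the results below was not tested. Summed over 12 mammary epithelial markers, the level was 29100.2 to 31372 CPM (counts scaled to a common library size) with OSM and TGFB and 18165 to 19658 CPM with TGFB alone; 10 of the 12 rose and 2, CDH1 and EPCAM, fell. The 6 endothelial markers summed to 2.59 to 3.05 CPM against 16.9 to 19.7 CPM, with CLDN5 at 0 in 6 of 6 libraries and CDH5 at 6 counts or fewer. The 8 leukocyte markers summed to 136 to 138 CPM against 115 to 124 CPM, with CD3E at 1 count or fewer and PTPRC at 5 counts or fewer; CSF1R (up to 3249 counts in a library), CD68 (1737) and CD14 (1005) made up nearly all of that sum and were at 0 in no library. The 8 fibroblast markers summed to 176 to 191 CPM against 204 to 214 CPM, most of it DCN and COL1A1, and COL3A1 had 2 counts or fewer. In bulk libraries such as these, fewer cells that express a gene and less of its RNA per cell cannot be told apart. Among the libraries used for the background without TGFB, OSM replicate 3 lay at -19.8 on the first principal component, against -6.57 and -0.66 for the other OSM libraries and -32.6 for EGF+TGFB replicate 2. An earlier account of these data had named these as 2 libraries that lie near each other; here the library closest to OSM replicate 3 on the first pair of components was OSM replicate 1. The total counts of called rows that use OSM replicate 3 are given with and without both libraries. Most other counts that use it are given only with it.

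Adding OSM to TGFB changed most of the rows with enough counts to test. Of 16611 such rows, 4808 were higher with OSM (28.9% of the rows) and 4203 were lower (25.3%), 9011 in all (54.2%). The rule, used for "rose" and "fell" throughout, was an adjusted p under 0.05 in the quasi-likelihood test of edgeR, with p-values adjusted over all rows by the method of Benjamini and Hochberg. At least 2-fold rises numbered 1310 (7.89%) and at least 2-fold falls 1367 (8.23%), and changes of at least 8-fold 219 and 274. In 10365 rows (62.4%) the 3 values of one group lay wholly above the 3 of the other. The median log2 fold change over all rows was 0.01, which the scaling of the libraries sets near 0. Which direction held more rows depended on that scaling: with upper-quartile scaling the median was -0.04, and 4275 rows were higher and 4826 lower. A row is a gene as the authors' table lists it. Because most rows were called, a list of genes stands out only through the size or the one-sidedness of its changes, not through being called. The counts of every list below are to be read beside the shares over all rows, 28.9% higher and 25.3% lower. The lists were written with earlier results of these data known, so the one-sidedness of a list is a description and not independent evidence.

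Among the 15 largest rises with a mean of at least 5 CPM were the feedback inhibitor SOCS3, the plasma protein genes FGL1, HP and SERPINA1, the squamous serpin SERPINB4 with the alarmin S100A7A and the protease CASP14, the stromelysin MMP3, the transcription factor SNAI1, the gap junction gene GJA1, the cytokine IL24, the oxygen-sensing hydroxylase EGLN3, the receptor genes TREM1 and TNFRSF6B, and OLFM4. The 15 largest falls were in DSG4, CALML5, CDSN, ASPRV1, KRT4, KRT10, SPRR1A, SPRR1B and SPRR3, which serve the upper layers of squamous epithelium or their differentiation, and in MUC21, POF1B, ATOH8, ATP6V1B1, GPX2 and HSD11B2, which inactivates cortisol. The fall of HSD11B2 (ENSG00000176387, chromosome 16, 67430652 to 67437553, plus strand of GRCh38) was from 206, 259.9 and 293 CPM in the TGFB libraries to 2.66, 4.34 and 3.8 CPM in the OSM+TGFB libraries, 70.3-fold. CASP14, a keratinocyte caspase of terminal differentiation, went the other way from most genes of that programme, from 0.548, 0.36 and 0.601 CPM to 67.9, 64.8 and 57.3 CPM. These 15 rises and 15 falls were picked among rows whose groups did not overlap, so their separation is part of the choice.

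**Figure D1:**
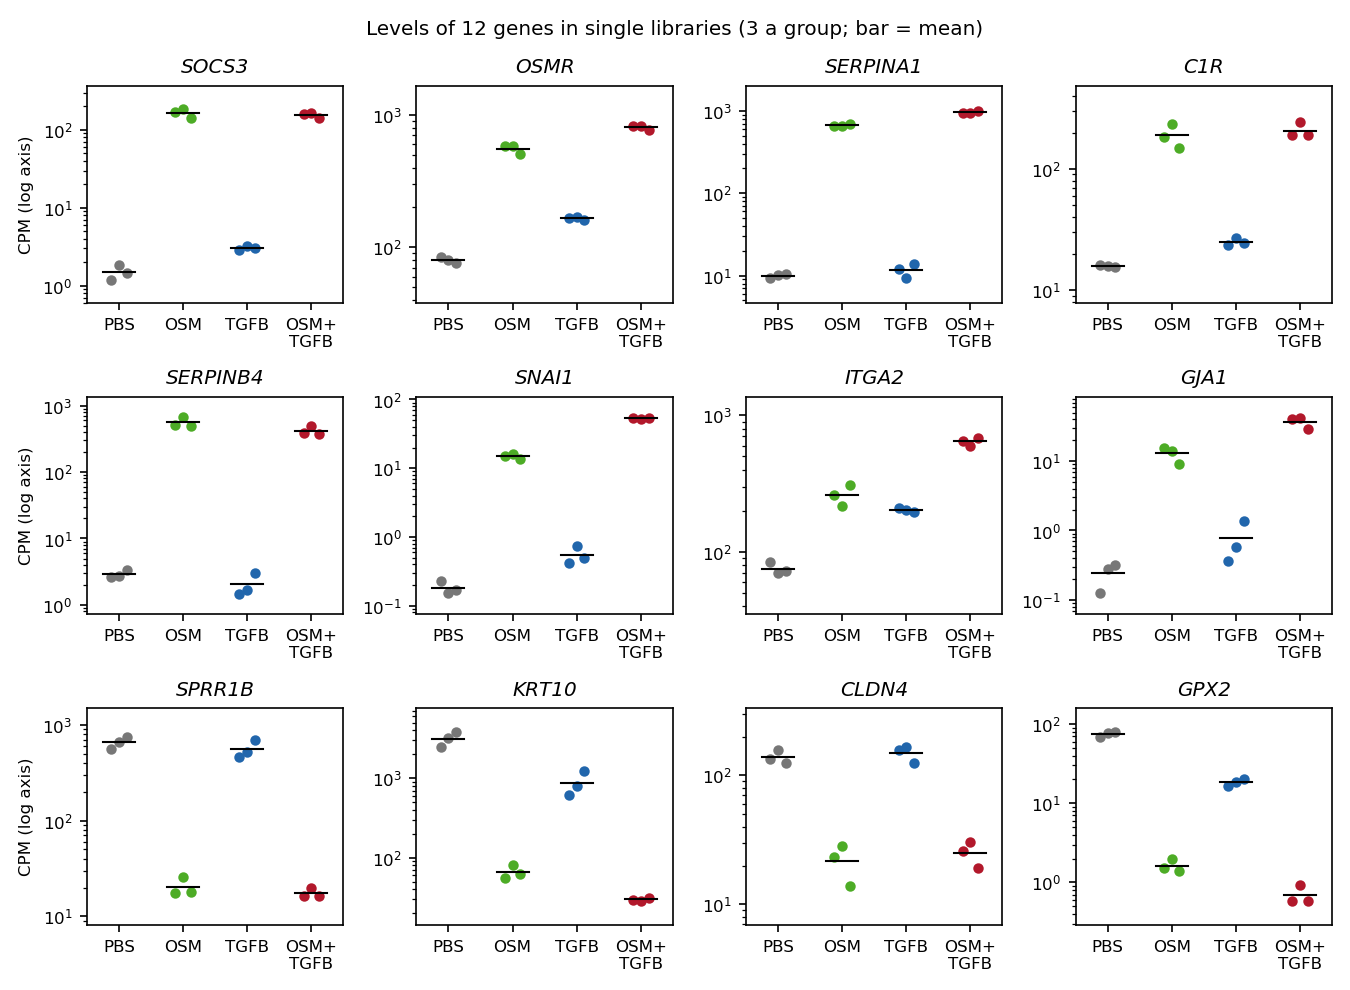
Level of 12 genes in single libraries (CPM, log axis) in the groups PBS, OSM, TGFB and OSM+TGFB; points are the 3 libraries of a group and bars their mean. The TGFB and OSM+TGFB points of each gene do not overlap: SOCS3, OSMR, SERPINA1, C1R, SERPINB4, SNAI1, ITGA2 and GJA1 are higher with OSM, and SPRR1B, KRT10, CLDN4 and GPX2 lower. The genes taken from the largest rises and falls were picked among rows with this separation, which 62.4% of all tested rows showed.

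In the OSM pathway itself, the feedback inhibitor SOCS3, both receptor chains and STAT3 rose. SOCS3 (ENSG00000184557, chromosome 17, 78356778 to 78360077, minus strand), which blocks the Janus kinases at the IL6ST chain, was at 2.87, 3.21 and 3.01 CPM in the TGFB libraries and at 159.8, 163 and 140.3 CPM in the OSM+TGFB libraries. All OSM+TGFB libraries were far above all TGFB libraries. The rise was 50.8-fold (log2 fold change 5.67 ± 0.14, SE, adjusted p = 1.1e-18). OSMR (ENSG00000145623, chromosome 5, 38845858 to 38945596, plus strand), the ligand-specific receptor chain, went from 166, 169 and 161 CPM to 826, 825 and 764 CPM, 4.87-fold (log2 fold change 2.29 ± 0.07, adjusted p = 1.1e-17). The shared chain IL6ST was at 134, 151 and 143 CPM and then at 252, 266 and 253 CPM (0.85 ± 0.05). The transcription factor STAT3 was at 274, 288 and 272 CPM and then at 553, 589 and 551 CPM (1.02 ± 0.06). In none of these 4 genes did the groups overlap.

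Of 18 tested genes of OSM-family ligands, receptors, Janus kinases and STAT factors, 8 rose, 6 fell and 4 did not pass the test. Over all rows 28.9% rose and 25.3% fell. The median log2 fold change of the 18 genes was 0.16. Among ligands, IL6 rose from 0.313, 0.264 and 0.246 CPM to 2.13, 2.82 and 3.48 CPM and IL11 from 2.48 ± 0.276 to 5.93 ± 0.70 CPM (mean ± SD, n = 3). LIF, a close relative of OSM, fell from 5.51, 5.75 and 5.17 CPM to 0.729, 0.949 and 1.19 CPM. The OSM gene itself had 7 counts over all 27 libraries and was not tested. Among receptors, IL6R fell from 114 ± 1.17 to 47.8 ± 5.39 CPM and IL31RA, the other partner of OSMR, from 5.76 ± 0.756 to 2.19 ± 0.528 CPM. LIFR (log2 fold change 0.09 ± 0.13, adjusted p = 0.56) and IL11RA (-0.40 ± 0.17, 0.059) did not pass the test, although IL11RA did with the replicate number as a block (-0.40, adjusted p = 0.0419). IL11RA also did with RLE scaling (0.0471) or upper-quartile scaling (0.0356), and without OSM+TGFB replicate 1 (0.0117) or TGFB replicate 3 (0.0207). The same held without OSM replicate 3 and EGF+TGFB replicate 2 (0.0499). The kinases moved little: JAK1 -0.40 ± 0.06, JAK2 -0.34 ± 0.11 and TYK2 0.26 ± 0.06 as log2 fold changes, each past the test. Of the other STAT factors, STAT5B (0.30 ± 0.05) rose and STAT6 (-0.16 ± 0.04) fell; STAT2 (0.22 ± 0.10, adjusted p = 0.068) and STAT5A (-0.19 ± 0.15, 0.3) did not pass the test. With the replicate block STAT2 did (0.22, adjusted p = 0.012), as it did when only the compared groups were fitted (0.20, 0.0187).

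Of 18 feedback and early target genes of STAT3, 11 rose, 3 fell and 4 did not pass the test (median 0.39, against 0.01 over all rows). TIMP1, an inhibitor of metalloproteinases, was at 156, 137 and 149 CPM with TGFB and at 2797, 2758 and 3370.1 CPM with both ligands, 20.2-fold higher. FGL1, a secreted fibrinogen-like protein of the liver, had 2 counts in the 3 TGFB libraries together and 15.6, 19.1 and 14.8 CPM in the OSM+TGFB libraries, a ratio of 962 (95% counting interval 266 to 7953), which covers counting error only. CISH, another feedback inhibitor of cytokine receptors, rose from 1.25, 1.56 and 1.72 CPM to 7.18, 6.59 and 6.35 CPM. The inhibitors were not uniform, since SOCS1 fell from 5.9, 5.2 and 4.51 CPM to 1.99, 1.09 and 0.929 CPM, as did the kinase gene PIM3, from 116 ± 6.13 to 30.7 ± 2.24 CPM. The change of PIM1 (-0.37 ± 0.14, adjusted p = 0.03) did not hold in 6 of the alternative settings, with adjusted p up to 0.11. MYC (-0.12 ± 0.09, 0.27) and CEBPB (-0.13 ± 0.13, 0.42) did not pass the test. MYC did when only the compared groups were fitted (-0.14, adjusted p = 0.0448), and CEBPB without OSM+TGFB replicate 1 (-0.31, 0.0373).

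The acute phase list, plasma proteins that the liver makes under interleukin-6 family cytokines, rose in 10 of 12 tested members, with 1 fall and 1 member not past the test. Its median log2 fold change was 3.72, or 3.21 when 5 members with 3 counts or fewer in TGFB were set to that floor. SERPINA1 (ENSG00000197249, chromosome 14, 94376747 to 94390693, minus strand), the inhibitor of neutrophil elastase, was at 12, 9.3 and 13.8 CPM in the TGFB libraries and at 946, 951 and 999 CPM in the OSM+TGFB libraries, 82.7-fold higher (log2 fold change 6.37 ± 0.10, adjusted p = 2.9e-23). HP, haptoglobin, had 3 counts over the TGFB libraries and 9.14, 21.2 and 19.4 CPM with both ligands, a ratio of 641 (95% counting interval 219 to 3112). LBP, which binds lipopolysaccharide, had 1 count against 1.54, 1.61 and 1.28 CPM, a ratio of 172 (95% counting interval 30.5 to 6851). The fibrinogen chains went from near nothing to a low level: FGB from 1 count to 0.841, 1.18 and 1.16 CPM. FGA went from 0 counts to 0.252, 0.719 and 0.899 CPM, at least 24.1-fold higher against a floor of 3 counts over the group. LCN2, an iron-binding acute phase protein of epithelia, was the member that fell, from 42.3, 50.6 and 39.4 CPM to 14.8, 22.5 and 11 CPM, and A2M (0.33 ± 0.54, adjusted p = 0.63) did not pass the test.

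Complement genes rose in 10 of 16 tested members, fell in 1 and did not pass the test in 5 (median 1.31). The rises included the classical pathway proteases and their inhibitor. C1R (ENSG00000159403, chromosome 12, 7080214 to 7092540, minus strand) was at 23.4, 27 and 24.6 CPM with TGFB and at 189, 242 and 190.1 CPM with both ligands, and its partner protease C1S at 9.68, 11.5 and 12.6 CPM and then at 102, 126 and 104 CPM. Each was higher in every OSM+TGFB library than in any TGFB library, 8.28-fold and 9.79-fold. SERPING1, which inhibits both proteases, rose from 0.972 ± 0.128 to 14.2 ± 1.13 CPM, and CFB, of the alternative pathway, from 5.89 ± 1.05 to 52.9 ± 12.1 CPM. The membrane regulator CD55 fell (-0.61 ± 0.10), and the central component C3, at 577, 812 and 687 CPM and 579, 827 and 632 CPM, did not pass the test (adjusted p = 0.91). CFB and C4A have several rows for alternate copies of their region. C4A did not pass the test on its main row (1.42, adjusted p = 0.16) and did with its rows summed (1.89, adjusted p = 0.0016) or without TGFB replicate 1 (2.51, 0.04).

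A STAT factor binds palindromes of the form TTCNNNGAA, in which N is any base, and the strict form TTCCNGGAA. Both strands were searched in the 250 bases upstream of the annotated starts of RefSeq (GRCh38.p14), and 225 of the 317 genes named by rule had such a promoter. TTCNNNGAA stood in 6.57% of all 35116 promoters and in 7.56% of the 11408 tested genes, in 10.0% of those at least 2-fold higher with OSM and in 7.14% of those at least 2-fold lower. TTCCNGGAA, which lies within the wider motif, stood in 1.31% of the tested genes, 2.34% of the higher and 1.21% of the lower ones. The 5 promoters below, of 4 named genes that rose and 1 that fell, are shown for their copies of TTCCNGGAA, in capitals: C1R at chr12:7091894-7092143 on the minus strand, CISH at chr3:50611775-50612024 on the minus strand, ICAM1 at chr19:10270870-10271119 on the plus strand, POSTN at chr13:37598769-37599018 on the minus strand and IFI27 at chr14:94110486-94110735 on the plus strand, each 5′ to 3′ toward the start.
C1R: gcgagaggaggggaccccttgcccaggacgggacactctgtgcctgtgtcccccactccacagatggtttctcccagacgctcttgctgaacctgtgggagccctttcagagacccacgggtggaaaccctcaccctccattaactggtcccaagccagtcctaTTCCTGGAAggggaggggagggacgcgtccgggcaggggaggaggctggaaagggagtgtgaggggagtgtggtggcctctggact
CISH: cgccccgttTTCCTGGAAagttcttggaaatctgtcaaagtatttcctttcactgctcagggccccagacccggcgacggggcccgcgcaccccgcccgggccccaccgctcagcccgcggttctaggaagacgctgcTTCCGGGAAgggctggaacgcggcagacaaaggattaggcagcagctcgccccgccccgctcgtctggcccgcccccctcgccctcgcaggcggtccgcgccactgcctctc
ICAM1: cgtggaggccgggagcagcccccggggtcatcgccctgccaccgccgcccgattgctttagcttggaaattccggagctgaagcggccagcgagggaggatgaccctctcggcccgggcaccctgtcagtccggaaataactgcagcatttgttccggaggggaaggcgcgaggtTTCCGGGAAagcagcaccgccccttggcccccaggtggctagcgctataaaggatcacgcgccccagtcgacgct
POSTN: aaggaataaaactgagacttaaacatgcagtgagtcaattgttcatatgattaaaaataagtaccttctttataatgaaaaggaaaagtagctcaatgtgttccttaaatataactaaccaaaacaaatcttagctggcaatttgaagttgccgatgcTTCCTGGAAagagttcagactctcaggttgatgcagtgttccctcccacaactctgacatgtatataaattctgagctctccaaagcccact
IFI27: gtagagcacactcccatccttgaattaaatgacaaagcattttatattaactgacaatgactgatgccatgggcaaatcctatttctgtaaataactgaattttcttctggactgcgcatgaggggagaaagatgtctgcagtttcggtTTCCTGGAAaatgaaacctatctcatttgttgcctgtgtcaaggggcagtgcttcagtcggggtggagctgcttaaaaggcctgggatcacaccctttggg
CISH holds 2 copies and the others 1 each. C1R, CISH, the adhesion receptor gene ICAM1 and the matrix gene POSTN rose, by 3.05, 2.15, 1.47 and 3.76 on the log2 scale, and IFI27, an interferon-stimulated gene with the same motif, had a log2 fold change of -1.45. A match is a description of the letters and not of binding.

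Serpins of clade B, the ovalbumin-type serpins of epithelia, changed in both directions: 5 of 10 tested members rose, 4 fell and 1 did not pass the test. SERPINB4 (ENSG00000206073, chromosome 18, 63637259 to 63644256, minus strand), a squamous cell antigen that inhibits serine proteases, was at 1.46, 1.68 and 2.98 CPM in the TGFB libraries and at 392, 488 and 372 CPM in the OSM+TGFB libraries, 206-fold higher (log2 fold change 7.69 ± 0.29, adjusted p = 1.1e-14). Its neighbour SERPINB3 rose from 20.9, 22.9 and 37.1 CPM to 391, 493 and 447 CPM, 16.5-fold. These genes are near-identical copies, and how their reads were divided is uncertain. SERPINB1, an inhibitor of neutrophil proteases, rose 2.24-fold. SERPINB2 fell from 38.6 ± 3.25 to 6.38 ± 0.926 CPM, SERPINB7 from 10.5 ± 1.34 to 2.02 ± 0.492 CPM and the abundant SERPINB5 (maspin) from 2030.2 ± 42.2 to 1245 ± 30.8 CPM. SERPINB13 did not pass the test (21.4 ± 4.66 and 21 ± 2.76 CPM, adjusted p = 0.92).

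S100 genes, small calcium-binding proteins, rose in 9 of 15 tested members, fell in 3 and did not pass the test in 3 (median 0.85). The pair that forms calprotectin led: S100A8 went from 106, 108 and 147 CPM to 1167, 1391 and 1395 CPM. S100A9 rose from 217, 239.7 and 316 CPM to 2402, 2858 and 2815 CPM. They were 11-fold and 10.5-fold higher, with no overlap of the groups. S100A7 (psoriasin) rose 4.02-fold and S100A12 6.07-fold. The log2 fold changes of S100P (-1.48 ± 0.22), S100A4 (-1.17 ± 0.10) and S100A14 (-0.60 ± 0.06) were negative, and S100A16 and S100A6 did not pass the test.

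Of 26 tested genes of the squamous differentiation list, 25 fell with OSM, none rose, and the median log2 fold change was -3.89. SPRR1B (ENSG00000169469, chromosome 1, 153031203 to 153032900, plus strand), a precursor of the cornified envelope, was at 464, 525 and 691 CPM in the TGFB libraries and at 16.3, 19.8 and 16.3 CPM in the OSM+TGFB libraries, 32.1-fold lower (log2 fold change -5.00 ± 0.22, adjusted p = 1.1e-13). KRT10, the keratin of suprabasal cells, went from 608, 797 and 1237 CPM to 29.6, 28.4 and 31.4 CPM. CALML5, a calcium-binding protein of the upper epidermis, fell from 77.8, 69.3 and 79.3 CPM to 1.01, 0.46 and 0.58 CPM, 109-fold. The desmosomal cadherin DSG1 fell from 8.51, 6.52 and 10.4 CPM to 0.14, 0.115 and 0.116 CPM, 66.6-fold. In all 4 genes the OSM+TGFB libraries lay below every TGFB library. TGM1, the crosslinking enzyme of the envelope, did not pass the test, at 21.4, 32 and 42.5 CPM and 21.9, 30.5 and 37.7 CPM (adjusted p = 0.79). The list does not hold every gene of this kind: outside it, CASP14 rose (log2 fold change 6.98), as did the late envelope gene LCE3D (1.12, adjusted p = 0.0303), which was chosen after its values were seen.

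The SPRR genes lie together on chromosome 1. Their upstream windows are shown for TGANTCA, the motif of AP-1 factors, which are known regulators of this gene family. It stood in 6.80% of tested genes, 13.2% of those at least 2-fold lower and 9.81% of those at least 2-fold higher (both strands, 250 bases, RefSeq GRCh38.p14). At a limit of 8-fold the shares were close, 15.3% of the lower and 14.6% of the higher genes. Named genes that rose also held the motif, among them CASP14, OLFM4 and GJA1. The matches, in capitals, were in SPRR1A at chr1:152983831-152984080 on the plus strand, SPRR1B at chr1:153030953-153031202 on the plus strand and SPRR3 at chr1:153001499-153001748 on the plus strand.
SPRR1A: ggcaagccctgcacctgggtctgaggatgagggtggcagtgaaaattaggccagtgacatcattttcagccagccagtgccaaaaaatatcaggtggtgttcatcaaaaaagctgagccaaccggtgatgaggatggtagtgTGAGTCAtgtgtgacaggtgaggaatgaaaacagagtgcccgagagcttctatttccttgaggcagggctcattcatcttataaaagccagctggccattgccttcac
SPRR1B: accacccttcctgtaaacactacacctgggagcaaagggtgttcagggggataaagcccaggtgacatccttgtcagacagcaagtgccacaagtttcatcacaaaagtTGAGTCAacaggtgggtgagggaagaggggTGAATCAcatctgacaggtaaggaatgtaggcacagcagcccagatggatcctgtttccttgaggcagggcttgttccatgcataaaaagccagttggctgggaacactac
SPRR3: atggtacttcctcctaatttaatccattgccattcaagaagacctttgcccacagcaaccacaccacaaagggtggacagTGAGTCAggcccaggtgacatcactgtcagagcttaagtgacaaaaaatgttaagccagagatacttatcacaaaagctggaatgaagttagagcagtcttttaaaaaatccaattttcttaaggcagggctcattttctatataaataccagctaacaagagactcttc
SPRR1B holds 2 matches and the other two 1 each. SPRR1A fell from 72, 87.6 and 127 CPM to 2.16, 2.22 and 2.03 CPM, 44.6-fold. SPRR3 fell from 109, 157 and 258 CPM to 3.93, 4.52 and 4.5 CPM, 40.5-fold. SPRR1A and SPRR1B resemble each other in sequence, so the division of reads between them is uncertain.

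**Figure D2:**
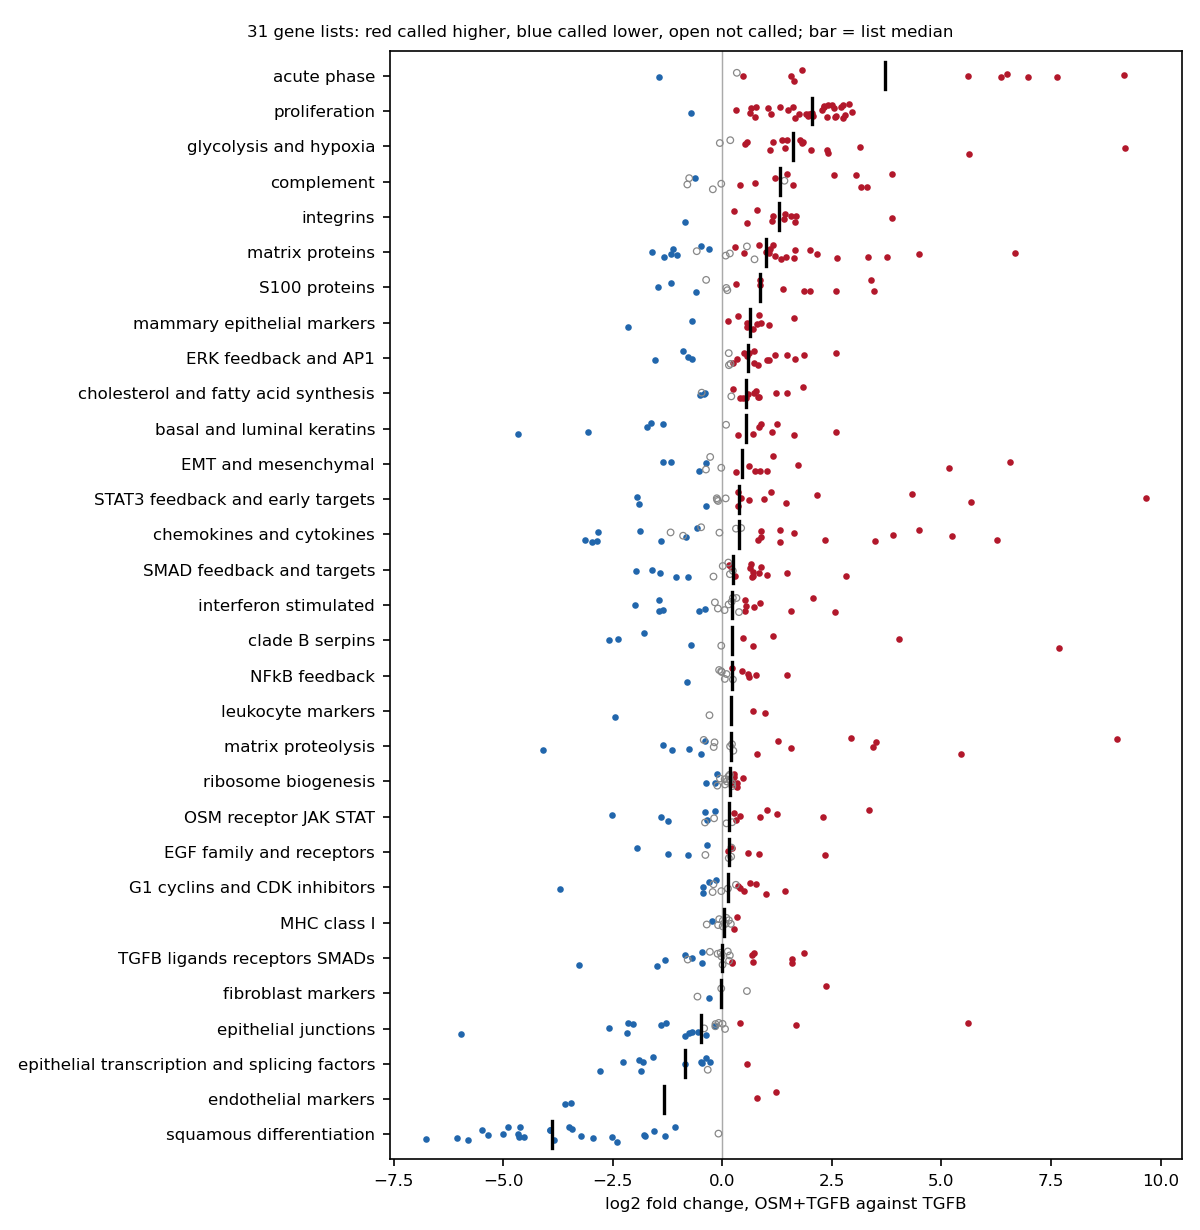
Log2 fold change of OSM+TGFB against TGFB for every tested member of 31 gene lists; red points rose, blue points fell, open points did not pass the test, and the bar is the list's median. The squamous list (median -3.89) lies furthest to the left, and the acute phase (3.72) and proliferation (2.04) lists furthest to the right; fitted values of genes with a few counts depend on the fit's prior count.

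Keratins of basal and luminal cells split: 8 of 14 rose, 5 fell and 1 did not pass the test. The basal keratin KRT14 went from 751, 787 and 923 CPM to 2363, 2444 and 2824 CPM. The stress keratins KRT6A (6080.0 ± 339.9 to 14356 ± 308 CPM), KRT6B (189 ± 10.5 to 418 ± 37.5 CPM) and KRT6C (6.69 ± 0.686 to 40.1 ± 6.1 CPM) rose together, with the caution that these 3 copies share much sequence. KRT15, a basal keratin of resting cells, fell from 388, 421 and 353 CPM to 60.6, 50.9 and 27.7 CPM, and KRT23 25.4-fold. KRT81 fell from 3064 ± 332 to 923 ± 120.2 CPM, and KRT7 did not pass the test (adjusted p = 0.35). The fall of KRT19 (-1.63 ± 0.69, adjusted p = 0.049) was at under 0.5 CPM and was lost when any 1 of the 6 libraries was left out, with adjusted p between 0.059 and 0.13, or with the replicate block (0.0557).

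Junction genes fell more often than they rose: 13 of 22 were lower, 3 higher and 6 not past the test (median -0.48). The tight junction gene CLDN4 was at 158, 167 and 124 CPM with TGFB and at 25.9, 30.3 and 19 CPM with both ligands, 5.97-fold lower. CGN fell from 49.7 ± 4.88 to 11 ± 1.07 CPM, and the epithelial adhesion gene EPCAM from 15.3, 15.9 and 12.3 CPM to 2.72, 3.83 and 3.25 CPM. E-cadherin, CDH1, fell less, from 668, 675 and 624 CPM to 372, 444 and 409 CPM (1.61-fold). CLDN8 went from 0.789 ± 0.215 CPM to 1 count in 3 libraries, a TGFB to OSM+TGFB ratio of 83.6 (95% counting interval 14.6 to 3339). The list's gap junction genes, GJA1 and GJB2, rose. GJA1 (ENSG00000152661, chromosome 6, 121435595 to 121449727, plus strand) went from 0.365, 0.575 and 1.37 CPM to 40.6, 42.1 and 29.1 CPM. GJB2 rose from 42.2, 43.3 and 73.9 CPM to 167, 157 and 186 CPM. The plakophilin gene PKP3 rose slightly (0.39 ± 0.06). The desmosomal genes DSG2 and DSC3 and the tight junction gene F11R did not pass the test. DSC3 did, lower with OSM, with the replicate block (-0.16, adjusted p = 0.0336). It also did with RLE scaling (0.0493), upper-quartile scaling (0.0164) or DESeq2 (0.0404), and when only the compared groups were fitted (0.00713). The same held without OSM+TGFB replicate 2 (0.0429), and without OSM replicate 3 and EGF+TGFB replicate 2 (0.0359).

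Transcription and splicing factors of the epithelial state were lower in 11 of 13 tested genes, with 1 higher and 1 not past the test (median -0.86). SOX9, a factor of luminal progenitors, went from 75.3, 73.1 and 62.3 CPM to 11.1, 10.9 and 8.21 CPM. ELF3, an epithelial ETS factor, fell from 192, 237 and 183 CPM to 41.6, 54.7 and 30.7 CPM. OVOL2, a repressor of mesenchymal genes, fell from 10.5 ± 1.37 to 2.78 ± 0.235 CPM and KLF4 from 64.5 ± 2.28 to 17.7 ± 0.985 CPM. TP63, the master factor of basal cells, was the one that rose, from 129.9, 134 and 134 CPM to 193, 199 and 192 CPM, and GRHL1 (-0.33 ± 0.14, adjusted p = 0.053) did not pass the test. GRHL1 did pass it with the replicate block (-0.34, adjusted p = 0.00959) and with DESeq2 (adjusted p = 0.033).

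Mesenchymal genes rose in 9 of 16 tested members, fell in 4 and did not pass the test in 3. SNAI1 (ENSG00000124216, chromosome 20, 49982980 to 49988886, plus strand), a repressor of CDH1, was at 0.417, 0.743 and 0.492 CPM in the TGFB libraries and at 53.5, 51.4 and 54.3 CPM in the OSM+TGFB libraries. The groups were far apart, 94.9-fold (log2 fold change 6.57 ± 0.17, adjusted p = 1.6e-19). ZEB1, another such repressor, rose from 2.84, 3.69 and 2.84 CPM to 10.6, 9.93 and 10.6 CPM. The mesenchymal cadherin CDH11 rose from 0.0261, 0.0959 and 0.137 CPM to 3.2, 2.91 and 3.54 CPM and the contractile gene TAGLN from 141 ± 11.3 to 317 ± 50.8 CPM. The factors did not move as one, since TWIST1 fell from 13 ± 0.958 to 5.07 ± 0.669 CPM, AXL fell (-0.53 ± 0.08), and SNAI2 (-0.03 ± 0.06, adjusted p = 0.76) and ZEB2 (-0.28 ± 0.12, 0.061) did not pass the test. ACTA2, smooth muscle actin, was at 12.2 ± 2.16 and 9.43 ± 1.22 CPM (adjusted p = 0.073). With the replicate block both ACTA2 (-0.37, adjusted p = 0.00266) and ZEB2 (-0.28, 0.0242) passed the test, as they did when only the compared groups were fitted (0.0389 and 0.00621).

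The machinery of TGFB signalling itself showed 8 rises, 7 falls and 9 genes not past the test among 24, shares close to those over all rows, with a median of -0.01. Among ligands and their carriers, TGFB1 (0.22 ± 0.09, adjusted p = 0.036) was called here but not under upper-quartile scaling (adjusted p = 0.11) or without any of 4 of the libraries. TGFB2 fell from 7.1, 7.98 and 7.49 CPM to 3.9, 5.38 and 4.64 CPM (lost without OSM+TGFB replicate 1, adjusted p = 0.071, or TGFB replicate 2, 0.052) and TGFB3 did not pass the test. The latent binding proteins rose or fell by gene: LTBP1 from 287, 268 and 233 CPM to 1009, 891 and 952 CPM. LTBP2 rose from 172, 162 and 157 CPM to 488, 486 and 509 CPM, while LTBP3 fell (-1.31 ± 0.14) and LTBP4 did not pass the test. INHBA, a subunit of activin, fell from 13 ± 1.61 to 7.21 ± 0.719 CPM, its antagonist FST from 4.2, 4.75 and 5.17 CPM to 1.51, 1.81 and 1.71 CPM, and BMP2 from 17.7 ± 0.443 to 12.8 ± 0.284 CPM. BMP4 did not pass the test (-0.79 ± 0.38, adjusted p = 0.086).

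Of the receptors, the kinase TGFBR1 rose from 84.4, 90.9 and 90.3 CPM to 250.3, 269.7 and 276 CPM, and TGFBR2, with which it pairs, was at 211, 192 and 184 CPM and 197, 184 and 197 CPM (adjusted p = 0.82). The co-receptor TGFBR3 fell from 25.5, 28.5 and 29.3 CPM to 2.78, 2.39 and 3.51 CPM, 9.59-fold, with every OSM+TGFB library below every TGFB library. The endothelial-type co-receptor ENG rose (0.67 ± 0.09). The activin receptor ACVR1B rose (0.71 ± 0.06), ACVR2A fell (-0.46 ± 0.10), and ACVR1 and BMPR2 did not pass the test. With the replicate block both did (0.12, adjusted p = 0.0247, and 0.17, 0.0116). BMPR2 also did without OSM+TGFB replicate 3 (0.22, adjusted p = 0.029) or TGFB replicate 2 (0.21, 0.04995). SMAD3 rose from 45.8, 45.7 and 44.4 CPM to 73.7, 78.3 and 67.6 CPM and SMAD1 slightly (0.22 ± 0.07, adjusted p = 0.011, lost without OSM+TGFB replicate 1, 0.053, or TGFB replicate 3, 0.06). SMAD2, SMAD4 and SMAD5 did not pass the test. SMAD2 (-0.11 ± 0.05, adjusted p = 0.054) did pass it with the replicate block (adjusted p = 0.0144), DESeq2 (0.0274), RLE scaling (0.0364) or upper-quartile scaling (0.00474), when only the compared groups were fitted (0.0244), and without OSM+TGFB replicate 2 (0.0212), each time lower with OSM.

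Feedback and target genes of the SMAD factors rose in 13 of 23 tested members, fell in 5 and did not pass the test in 5 (median 0.24). TGM2, which crosslinks matrix proteins, went from 213, 176 and 156 CPM to 1266, 1185 and 1408 CPM. It was higher in every library with OSM, 7.08-fold. BHLHE40 rose 2.78-fold and CCN1 2.03-fold. The targets of the bone morphogenetic branch went down: ID2 from 41.7 ± 8.65 to 10.7 ± 1.34 CPM, ID3 from 107 ± 9.26 to 35.5 ± 1.5 CPM and the inhibitory SMAD6 from 7.63 ± 0.57 to 2.82 ± 0.553 CPM, although ID1 did not pass the test (0.17 ± 0.14, adjusted p = 0.31). NEDD9 fell from 47.7 ± 1.91 to 22.7 ± 0.743 CPM, and COL7A1 did not pass the test. COL7A1 did when only the compared groups were fitted (0.11, adjusted p = 0.0441). CDKN1A, the cell cycle inhibitor, was at 527, 556 and 483 CPM and 481, 469.8 and 409 CPM, with the lowest library with TGFB alone just above the highest with both. It did not pass the test (-0.20 ± 0.12, adjusted p = 0.16) but did with the replicate number as a block (-0.20, adjusted p = 0.00103) and when only the compared groups were fitted (-0.23, adjusted p = 0.0237).

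Genes that responded to TGFB in other samples were taken as a wider measure: 854 rows at least 2-fold higher in EGF+TGFB than in EGF, and 667 at least 2-fold lower, samples that do not enter the comparison of OSM+TGFB with TGFB. Of the 854 higher rows, 469 rose with OSM (54.9%, against 28.9% of all rows) and 116 fell (13.6%, against 25.3%). The other 269 did not pass the test, and the median log2 fold change was 0.62. Of the 667 lower rows, 332 fell (49.8%), 134 rose (20.1%) and 201 did not pass the test, with a median of -0.78. Most of these rows that moved with OSM thus moved in the direction that TGFB gave on EGF, but 116 and 134 moved the other way. Whether the same rows respond to TGFB without EGF was not tested. When the rows were chosen by adjusted p alone, with no fold limit, the medians were 0.20 and -0.05.

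**Figure D3:**
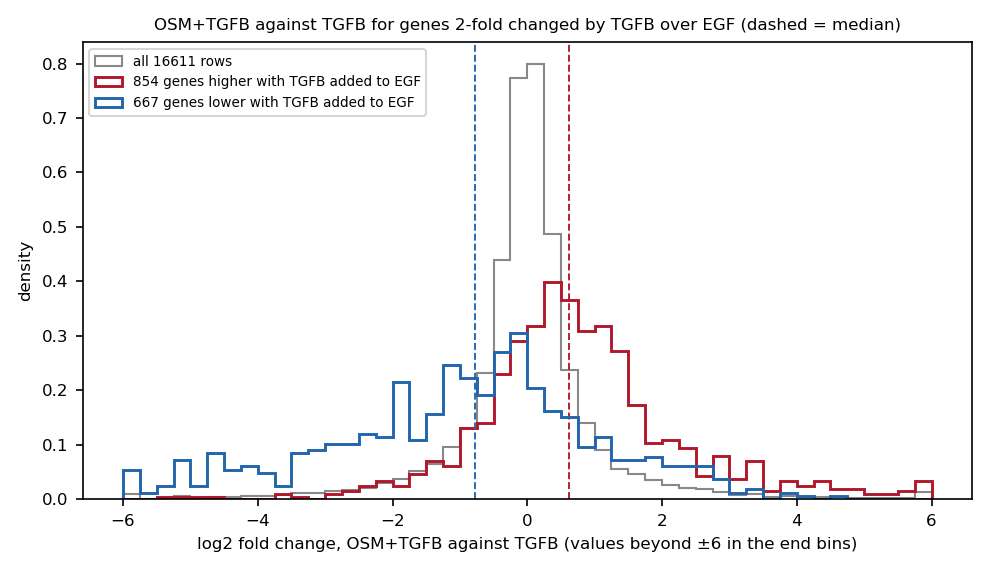
Distribution of the log2 fold change of OSM+TGFB against TGFB for rows that were at least 2-fold higher (854) or lower (667) in EGF+TGFB than in EGF; dashed lines mark the medians. The higher rows centre on 0.62 and the lower rows on -0.78, with overlap of the distributions around 0.

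Matrix genes rose in 19 of 31 tested members, fell in 7 and did not pass the test in 5 (median 1.00). TNC (ENSG00000041982, chromosome 9, 115019575 to 115118207, minus strand), tenascin C of injured and remodelling matrix, was at 169, 181 and 167 CPM in the TGFB libraries and at 3600.0, 3949 and 4117 CPM in the OSM+TGFB libraries, 22.6-fold higher (log2 fold change 4.50 ± 0.18, adjusted p = 6.4e-15). POSTN, periostin, rose from 4.15, 4.22 and 3.66 CPM to 58.1, 45.6 and 59.6 CPM. LOXL2, which crosslinks collagen, rose from 20.9, 21.1 and 21.9 CPM to 215, 208 and 212 CPM. The groups were apart in each of these 3 genes. COL5A1 had 0 counts in the TGFB libraries and a mean of 0.315 ± 0.0609 CPM, at least 12.2-fold higher than the floor of 3 counts. The falls included other collagens and perlecan: COL8A1 from 26.5, 24.1 and 26.6 CPM to 8.16, 7.54 and 9.46 CPM, COL16A1 from 23.1 ± 1.78 to 10.3 ± 0.521 CPM, COL6A1 from 32.4 ± 2.5 to 14.8 ± 1.35 CPM and HSPG2 from 595 ± 30.7 to 237 ± 36.6 CPM. LAMA5, COL5A2 and THBS2 did not pass the test.

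Integrin subunits, which bind these matrix proteins, rose in 11 of 12 tested genes, with the 1 fall in ITGB8 (-0.85 ± 0.09) and a median of 1.28. ITGA2, of the collagen receptor, went from 210.2, 204 and 195 CPM to 649, 601 and 681 CPM. ITGA3, of a laminin receptor, rose from 428, 424 and 431 CPM to 1358, 1288 and 1473 CPM. ITGA5, of the fibronectin receptor, rose from 493, 473 and 421 CPM to 1392, 1375 and 1328 CPM. They were 3.18, 3.21 and 2.95-fold higher, with no overlap of the groups. ITGB3 had the widest change of the list, from 8.58, 9.5 and 7.54 CPM to 126, 131 and 119 CPM, 14.7-fold.

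Matrix proteases and their inhibitors rose in 8 of 20 tested genes, fell in 6 and did not pass the test in 6. The shares over all rows were 28.9% higher and 25.3% lower. The stromelysin MMP3 (ENSG00000149968, chromosome 11, 102835801 to 102843609, minus strand) was at 0.157, 0.12 and 0.109 CPM in the TGFB libraries and at 79.1, 72 and 50.7 CPM in the OSM+TGFB libraries, 511-fold higher. The collagenase MMP1, a neighbour of MMP3 on chromosome 11, rose from 0.0261, 0.144 and 0.0547 CPM to 4.01, 3.77 and 2.58 CPM. MMP10, also on that chromosome, rose from 1.07, 0.983 and 1.18 CPM to 16.4, 10.3 and 8.21 CPM. MMP7, another metalloproteinase of chromosome 11, went the opposite way, from 19.4, 26.2 and 24.3 CPM to 1.6, 1.75 and 0.696 CPM. SERPINE2, protease nexin, rose from 23 ± 2.95 to 263 ± 30.9 CPM, and TIMP3 fell from 885 ± 37.7 to 345 ± 15.8 CPM, opposite to TIMP1. MMP28 and ADAMTS1 fell, and MMP2, PLAUR and PI3 did not pass the test. PLAUR did with the replicate block (0.22, adjusted p = 0.0346) and when only the compared groups were fitted (0.19, 0.0276).

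Genes of ERK feedback and of the AP-1 factors rose in 15 of 22, fell in 4 and did not pass the test in 3 (median 0.59). DUSP6, a phosphatase of ERK and a common readout of that pathway, went from 10.5, 10.1 and 10.5 CPM to 66.5, 57.1 and 63.9 CPM, 6.02-fold. EGR1 rose from 26.8, 27.9 and 37.2 CPM to 97.2, 91.9 and 99.6 CPM. SPRY4 rose from 8.74, 7.96 and 7.74 CPM to 28.5, 24.2 and 36.7 CPM. In all 3 genes the groups were apart. FOSL1, the AP-1 subunit FRA1, rose 2.77-fold, while FOSB (-1.53 ± 0.19), JUND (-0.79 ± 0.15) and SPRY2 (-0.91 ± 0.10) fell. DUSP1, ETV4 and SPRY1 did not pass the test, and the fall of ETV1 (-0.69 ± 0.23, adjusted p = 0.016) was lost without OSM+TGFB replicate 2 (0.079) or TGFB replicate 1 (0.096). Of 13 genes of the EGF family and its receptors, 5 rose, 4 fell and 4 did not pass the test. Beside them, 28.9% of all rows rose and 25.3% fell. The ligands NRG1 (1.61 ± 0.372 to 8.22 ± 1.49 CPM), TGFA (0.58 ± 0.09) and AREG (0.83 ± 0.24, lost without OSM+TGFB replicate 3, adjusted p = 0.068) rose, and the receptor ERBB3 fell from 125, 137 and 122 CPM to 34, 36.7 and 29.4 CPM. HBEGF, EPGN and the receptor inhibitor ERRFI1 did not pass the test. With the replicate block DUSP1 (0.15, adjusted p = 0.0263), EPGN (-0.39, 0.000108) and ERRFI1 (0.20, 0.0179) did, and EPGN also with DESeq2 (0.0208), RLE scaling (0.0484) or upper-quartile scaling (0.0247). DUSP1 also did when only the compared groups were fitted (0.12, 0.0265), and HBEGF without TGFB replicate 3 (0.30, 0.0327).

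Proliferation genes rose almost without exception: 32 of 33 were higher with OSM, with a median log2 fold change of 2.04, and only the E2F factor E2F2 was lower (-0.71 ± 0.19). MYBL2, a transcription factor of cycling cells, went from 4.72, 3.62 and 5.71 CPM to 25.8, 27.2 and 44.3 CPM. The mitotic kinesin KIF20A rose from 5.53, 4.6 and 4.32 CPM to 29.6, 33.7 and 49.1 CPM. The nucleotide reductase subunit RRM2 rose from 7.31, 5.44 and 7.74 CPM to 39.7, 38.3 and 60.6 CPM. In each, OSM+TGFB replicate 3 was the highest library and all 3 lay above the TGFB libraries. The kinase AURKB rose 7.45-fold. Whether more cells cycled or cycling cells held more of these RNAs cannot be told from bulk libraries.

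Regulators of the G1 phase were mixed, with 7 of 17 higher, 5 lower and 5 not past the test. Of all rows, 28.9% were higher and 25.3% lower. CDKN1C, an inhibitor of cyclin-dependent kinases, fell from 58.3, 49.5 and 51.3 CPM to 4.6, 4.37 and 3.16 CPM, 13.1-fold. CDK2 rose from 16.4, 17.9 and 16.5 CPM to 33.5, 32 and 35.9 CPM and its cyclin CCNE2 from 1.23 ± 0.152 to 3.33 ± 0.663 CPM. CDKN1B and RBL2 fell slightly (-0.44 ± 0.10 and -0.32 ± 0.06), as did CCND1 (-0.44 ± 0.14, lost without OSM+TGFB replicate 2, adjusted p = 0.061), and CDC25A rose (0.76 ± 0.21, lost without replicate 3, 0.052). CDK4 and CCND2 did not pass the test. CCND2 did, lower with OSM, with the replicate block (-0.22, adjusted p = 0.018). It also did with RLE scaling (0.0488) or upper-quartile scaling (0.0251), and when only the compared groups were fitted (0.0169). The same held without OSM+TGFB replicate 2 (0.0467), and without OSM replicate 3 and EGF+TGFB replicate 2 (0.0489). Ribosome biogenesis genes, often higher in growing cells, changed little: 9 of 22 rose, 3 fell and 10 did not pass the test, with a median of 0.18. NOP58 rose from 42.7, 42.9 and 45.6 CPM to 54.7, 57.9 and 68 CPM, FBL (0.32 ± 0.07) and NOLC1 (0.32 ± 0.08) slightly, and POLR1B fell (-0.38 ± 0.09). Without OSM+TGFB replicate 3, the calls of this list fell from 12 to 7.

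Chemokines and cytokines rose in 12 of 26 tested genes, fell in 8 and did not pass the test in 6. The shares of all rows were 28.9% and 25.3%. IL24, of the interleukin-10 family, was at 0.444, 0.216 and 0.301 CPM with TGFB and at 20.5, 21.8 and 31.5 CPM with both ligands, and the granulocyte factor CSF3 went from 0.365, 0.456 and 0.328 CPM to 7.99, 8.72 and 9.34 CPM. CCL20, which attracts dendritic cells and lymphocytes, rose from 1.98, 2.01 and 1.75 CPM to 27, 30.5 and 28.3 CPM. The groups were apart in these 3 genes, by 76.5, 22.3 and 14.9-fold. IL1RN, the interleukin-1 receptor antagonist, fell from 40.0, 52.8 and 76.4 CPM to 5.3, 8.49 and 9.75 CPM. CXCL14 fell from 30.7, 27.8 and 25.2 CPM to 4.01, 4.8 and 2.73 CPM. CCL5 fell from 0.439 ± 0.16 to 0.0475 ± 0.0438 CPM, and CSF2, at 20 counts over the TGFB libraries, to 2 counts. CXCL5 had 0 counts with TGFB and 12 with both ligands. IL1B, at 4.94 ± 1.2 and 6.65 ± 2.07 CPM, did not pass the test (adjusted p = 0.17) but did with the replicate block (0.42, adjusted p = 0.00478). CSF1 and TSLP did not pass it, although TSLP did without OSM+TGFB replicate 2 (-0.88, adjusted p = 0.0303).

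Genes of NF-kB and its feedback rose in 6 of 13, fell in 1 and did not pass the test in 6. ICAM1 went from 22.6 ± 2.01 to 62.5 ± 4.98 CPM, NFKB1 from 72.4 ± 2.29 to 123 ± 8.67 CPM, NFKB2 and RELB rose less (0.61 ± 0.08 and 0.57 ± 0.10), and BIRC3 fell (-0.80 ± 0.15). NFKBIA and TNFAIP3, the inhibitors most used as readouts of the pathway, did not pass the test (adjusted p = 0.41 and 0.15), although TNFAIP3 did with the replicate block (0.25, adjusted p = 0.0428). TNFAIP3 also did when only the compared groups were fitted (0.22, 0.0256). Of 22 interferon-stimulated genes, 8 rose, 6 fell and 8 did not pass the test, near the shares over all rows (28.9% and 25.3%). IFITM3, which blocks virus entry, rose from 126, 149 and 154 CPM to 757, 923 and 882 CPM. GBP1 rose from 27.8, 24 and 26.8 CPM to 70.2, 81.3 and 81.6 CPM. IFIT1 fell from 5.61, 6.98 and 4.98 CPM to 1.51, 1.7 and 1.16 CPM. OAS1 fell from 16.7, 17.1 and 17.5 CPM to 6.23, 7.85 and 5.8 CPM. ISG15, IFIT3 and IFI6 did not pass the test. IFIT3 did with the replicate block (0.21, adjusted p = 0.0453), and without OSM+TGFB replicate 1 (0.25, 0.0485) or TGFB replicate 2 (0.27, 0.0444). Of 12 genes of antigen presentation by class I molecules, 2 rose, 1 fell and 9 did not pass the test. HLA-C (0.26 ± 0.06) and TAPBP (0.33 ± 0.08) were slightly higher, HLA-E was lower (-0.23 ± 0.08, adjusted p = 0.016; 0.079 without TGFB replicate 2), and B2M did not pass the test. With the replicate block 5 were called, and the alternate copies of these loci make the division of reads uncertain.

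Genes of glycolysis and of the response to low oxygen rose in 16 of 18, none fell, and the median log2 fold change was 1.62. VEGFA (ENSG00000112715, chromosome 6, 43770184 to 43786487, plus strand), the endothelial growth factor, went from 37, 32 and 29.4 CPM to 321, 258 and 291 CPM, 8.83-fold. EGLN3, the hydroxylase that marks hypoxia-inducible factors for degradation, rose from 2.04, 1.75 and 1.48 CPM to 94.7, 83.8 and 81.3 CPM. PDK1, which keeps pyruvate out of mitochondria, rose from 8.74, 9.28 and 9.1 CPM to 44.5, 50.0 and 49.7 CPM. CA9, carbonic anhydrase IX and a marker of hypoxia, had 1 count over the TGFB libraries and 7.43, 6.47 and 6.56 CPM with both ligands, a ratio of 796 (95% counting interval 142 to 31490.3). HK1, the constitutive hexokinase, and ADM did not pass the test (-0.06 ± 0.05 and 0.18 ± 0.12). With upper-quartile scaling HK1 did, lower with OSM (-0.11, adjusted p = 0.0286). Of 17 genes of cholesterol and fatty acid synthesis, 12 rose, 3 fell and 2 did not pass the test. IDI1, an enzyme of the sterol pathway, rose from 46.3, 54.6 and 60.9 CPM to 131, 146 and 174 CPM, while the fatty acid genes FASN (-0.42 ± 0.08) and ELOVL6 (-0.39 ± 0.11) fell. ACACA also fell (-0.50 ± 0.18), but the call was lost in 5 alternatives, with the smallest change without TGFB replicate 1 (-0.27, adjusted p = 0.22).

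The same step, adding OSM, was then read without TGFB. OSM against PBS, in 6 other libraries, changed 10129 rows (61% of those tested; 9317 without OSM replicate 3 and EGF+TGFB replicate 2). Of the rows called for OSM+TGFB against TGFB, 82.3% were also called for OSM against PBS, and of the latter 73.2% were called in the former. Of 7418 rows called on both backgrounds, 7186 (96.9%) moved in the same direction, and across all 16611 rows the log2 fold changes had a Pearson r of 0.787, a description across rows that are not independent. The 1659 rows at least 2-fold higher in OSM than in PBS changed by a median of 1.33 on the log2 scale with TGFB present against 1.85 without, and the 1623 lower rows -1.44 against -1.81; they were chosen on the second comparison, which by itself makes the values larger there.

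The test of the difference between the log2 fold changes, (OSM+TGFB minus TGFB) minus (OSM minus PBS), called 3565 rows: in 1471 (8.86%) the value was higher with TGFB and in 2094 (12.6%) it was lower. Without OSM replicate 3 and EGF+TGFB replicate 2 the count was 2976, of which 1145 were higher and 1831 lower. Of 2018 rows called in this test and on both backgrounds, the response was smaller with TGFB in 1379 and larger in 407, and 232 rows changed direction, 116 each way. The rise of SOCS3 was 6.77 ± 0.16 without TGFB and 5.67 ± 0.14 with it, a difference of -1.11 ± 0.22 (adjusted p = 0.001), on PBS libraries at 1.2, 1.83 and 1.44 CPM and OSM libraries at 169, 182 and 143 CPM. That of OSMR was 2.80 ± 0.08 and 2.29 ± 0.07 (difference -0.51 ± 0.10), while IL6ST rose more with TGFB (0.40 ± 0.05 and 0.85 ± 0.05, difference 0.45 ± 0.07). For SERPINB4 (7.59 ± 0.28 and 7.69 ± 0.29, adjusted p of the difference 0.91), SERPINA1 (6.06 ± 0.10 and 6.37 ± 0.10, 0.083) and SPRR1B (-4.99 ± 0.22 and -5.00 ± 0.22, 0.99) the difference did not pass the test.

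**Figure D4:**
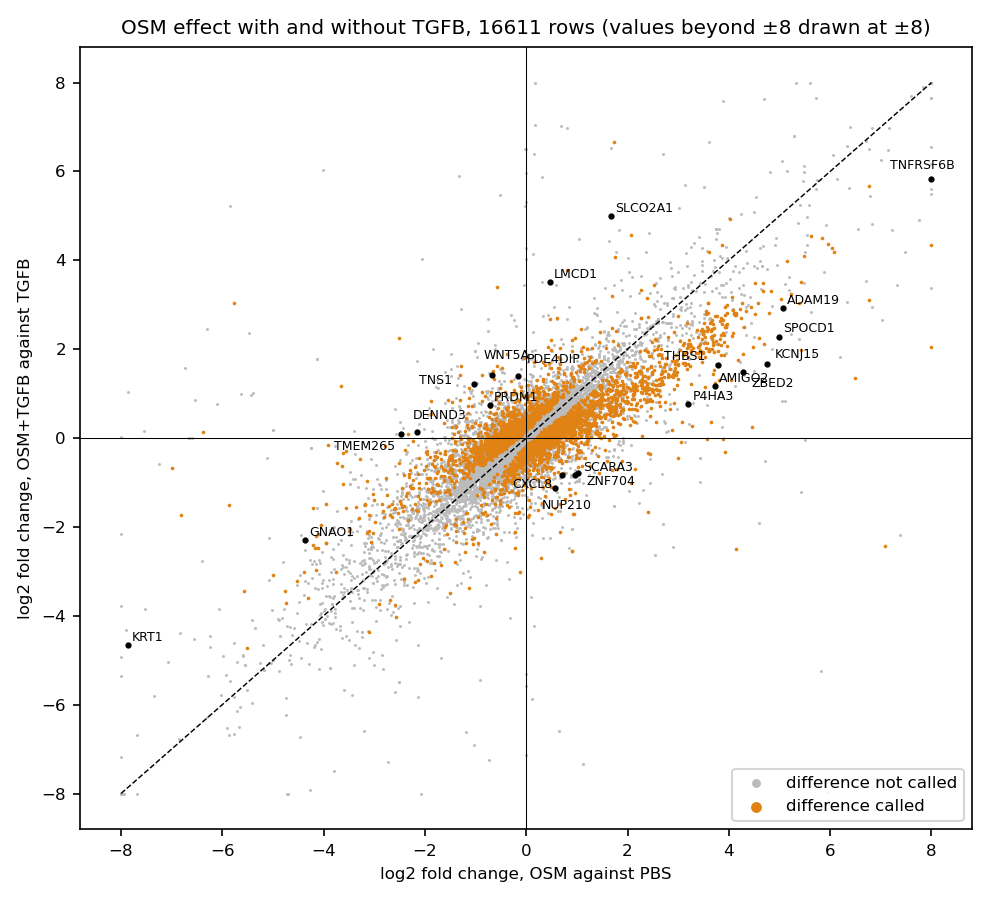
Log2 fold change of OSM against PBS (horizontal) and of OSM+TGFB against TGFB (vertical) for 16611 rows, drawn within ±8; orange points are the 3565 rows in which the difference between the values passed the test. Most points follow the diagonal (Pearson r 0.787), and the labelled genes lie far from it.

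The proliferation list differed between the backgrounds in one direction. Its median was 3.40 without TGFB and 2.04 with it, and the difference was called, lower with TGFB, for 30 of 33 genes (26 without the 2 libraries named above) and higher for none. MYBL2 stood at 3.5, 3.27 and 4.94 CPM in the PBS libraries and at 78.4, 77.4 and 109.8 CPM in the OSM libraries, against 4.72, 3.62 and 5.71 CPM and 25.8, 27.2 and 44.3 CPM with TGFB, a difference of -1.71 ± 0.34 on the log2 scale (adjusted p = 0.0011). The OSM libraries without TGFB were thus the highest of the 4 groups. The difference for CDKN1A was 0.71 ± 0.17 (adjusted p = 0.0044): it fell with OSM alone, from 477 ± 35 to 253 ± 39.7 CPM, and was near its TGFB level with both ligands. Ribosome biogenesis genes rose in 22 of 22 with OSM alone (median 0.63), and the difference was lower with TGFB for 20 (17 without the 2 libraries). Genes of glycolysis and low oxygen went the other way, with 10 of 18 differences higher with TGFB (9 without the 2 libraries) and 2 lower. VEGFA rose 2.38 ± 0.13 without and 3.14 ± 0.14 with TGFB (difference 0.76 ± 0.18), and HK1 fell with OSM alone (-0.76 ± 0.05) and did not pass the test with TGFB (difference 0.70 ± 0.07).

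**Figure D5:**
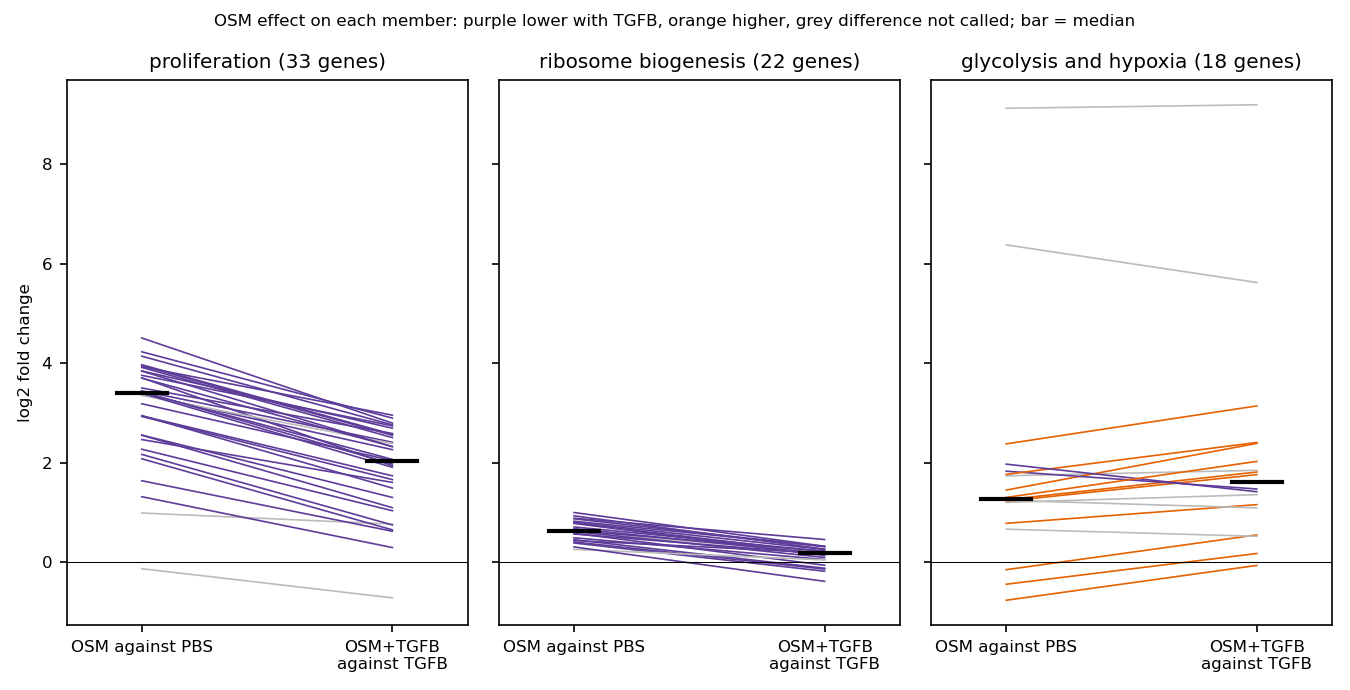
Log2 fold change for OSM against PBS and for OSM+TGFB against TGFB, joined by a line per gene, in the proliferation (33 genes), ribosome biogenesis (22) and glycolysis and hypoxia (18) lists; purple marks a difference called lower with TGFB, orange one called higher and grey one not called. Of the lines, 30, 20 and 2 are purple and 0, 0 and 10 orange.

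Among genes with a mean of at least 5 CPM over the 4 groups, the 8 largest positive differences included genes that OSM raised much more on top of TGFB. SLCO2A1 (ENSG00000174640, chromosome 3, 133932701 to 134052184, minus strand), a transporter of prostaglandins, was at 4.2, 4.95 and 4.45 CPM in PBS, 16.4, 11.2 and 15.9 CPM in OSM, 4.02, 3.5 and 2.51 CPM in TGFB and 116, 95.9 and 109.8 CPM in OSM+TGFB libraries, a difference of 3.33 ± 0.24 (adjusted p = 6.2e-09). LMCD1, a LIM-domain cofactor, was at 1.15 ± 0.179, 1.59 ± 0.446, 2.76 ± 0.0951 and 31.6 ± 1.62 CPM (mean ± SD, n = 3) in the same order, a difference of 3.05 ± 0.22. In both genes only the group with both ligands stood far above the others. DENND3 and TMEM265 fell with OSM alone (-2.16 ± 0.14 and -2.47 ± 0.55) and did not pass the test with TGFB present (differences 2.31 ± 0.18 and 2.57 ± 0.74). GNAO1 and KRT1 fell on both backgrounds, less with TGFB (differences 2.07 ± 0.31 and 3.21 ± 1.02). The last was lost in 5 alternatives, with adjusted p up to 0.11, and that of TMEM265 with DESeq2 (0.06) and when only the compared groups were fitted (0.07).

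The 8 largest negative differences were in genes that OSM raised on both backgrounds, less so with TGFB. THBS1 (ENSG00000137801, chromosome 15, 39581079 to 39599466, plus strand), thrombospondin, was at 24.2, 22 and 28.9 CPM in PBS, 304, 245 and 489 CPM in OSM, 169.7, 165 and 216 CPM in TGFB and 479, 480.3 and 772 CPM in OSM+TGFB libraries, a difference of -2.14 ± 0.32 (adjusted p = 8e-05). ADAM19, a membrane metalloproteinase, was at 3.28 ± 0.211, 110.1 ± 24.6, 51.1 ± 4.88 and 389 ± 30.5 CPM, a difference of -2.14 ± 0.23. The potassium channel gene KCNJ15 was at 2.56 ± 0.438, 68.8 ± 8.14, 29.4 ± 3.12 and 92.7 ± 5.24 CPM, a difference of -3.09 ± 0.16. In all 3 the mean of the group with both ligands was nevertheless the highest of the 4. For THBS1 the libraries overlapped, with an OSM library at 489 CPM above OSM+TGFB libraries at 479 and 480.3 CPM. OSM+TGFB against OSM was not tested. ZBED2 (-2.79 ± 0.38), SPOCD1 (-2.71 ± 0.50), AMIGO2 (-2.55 ± 0.26) and the prolyl hydroxylase P4HA3 (-2.44 ± 0.41) followed the same order of the group means, PBS lowest and OSM+TGFB highest. TNFRSF6B, a decoy receptor of death ligands, had 0 counts in the PBS libraries and 29.5, 24.5 and 37.7 CPM in the OSM libraries, at least 1281-fold higher, and 0.0261, 0.216 and 0.41 CPM against 14.6, 11.3 and 11.1 CPM with TGFB. Its fitted difference of -7.43 ± 1.93 depends on the prior count, is no bound, and was lost without TGFB replicate 3 (-6.66, adjusted p = 0.062).

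Some genes reversed. TNS1, tensin of focal adhesions, fell with OSM alone, from 24.4, 27.5 and 27.7 CPM to 13.5, 14.5 and 10.8 CPM, and rose with OSM on top of TGFB, from 27.2, 27.8 and 29.5 CPM to 64.6, 66 and 67 CPM, a difference of 2.26 ± 0.15 (adjusted p = 4.9e-10). WNT5A, a non-canonical WNT ligand, fell from 7.28 ± 0.614 to 4.57 ± 0.0555 CPM without TGFB and rose from 9.87 ± 1.53 to 26.2 ± 4.7 CPM with it (difference 2.08 ± 0.25). PDE4DIP (1.56 ± 0.08) and PRDM1 (1.46 ± 0.20) likewise fell with OSM alone and rose on top of TGFB. The opposite pattern, a rise with OSM alone and a fall on top of TGFB, was seen for the neutrophil chemokine CXCL8. Its means went from 2.88 ± 0.951 to 4.67 ± 1.12 CPM without TGFB and from 8.86 ± 1.26 to 4.94 ± 0.634 CPM with it (difference -1.55 ± 0.32). It was also seen for ZNF704 (-1.81 ± 0.19), SCARA3 (-1.79 ± 0.18) and the nuclear pore gene NUP210 (-1.68 ± 0.20). Among members of the lists, FST also rose with OSM alone and fell on top of TGFB (0.67 ± 0.29, adjusted p = 0.046, and -1.48 ± 0.23; difference -2.16 ± 0.37). SOCS1 showed a smaller fall with TGFB (-4.05 ± 0.25 and -1.96 ± 0.22, difference 2.09 ± 0.33), and EPCAM a larger one (-0.60 ± 0.13 and -2.15 ± 0.14, difference -1.55 ± 0.19). TNC and TGM2 rose less on top of TGFB (5.83 ± 0.19 and 4.50 ± 0.18, difference -1.34 ± 0.23; 4.11 ± 0.22 and 2.82 ± 0.18, difference -1.29 ± 0.27), from higher starting levels of 172 ± 7.3 against 12.5 ± 2.07 CPM and of 182 ± 28.8 against 4.25 ± 0.415 CPM.

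OSM was also added in the presence of EGF, where it called 5481 rows on EGF and 4114 on EGF+TGFB. The 4 additions of OSM share no library; the differences that involve EGF were not tested. The rise of SOCS3 was 6.07 ± 0.16 on EGF and 3.64 ± 0.13 on EGF+TGFB, beside 6.77 ± 0.16 on PBS and 5.67 ± 0.14 on TGFB. SERPINB4 rose 7.27 ± 0.31 and 6.53 ± 0.33 with EGF, beside 7.59 ± 0.28 and 7.69 ± 0.29 without it, and SERPINA1 4.06 ± 0.09 and 4.66 ± 0.10, beside 6.06 ± 0.10 and 6.37 ± 0.10. SNAI1 had 3.32 ± 0.19 and 3.17 ± 0.12, beside 6.34 ± 0.20 and 6.57 ± 0.17. The values of SPRR1B were -4.18 ± 0.22 and -3.76 ± 0.23, beside -4.99 ± 0.22 and -5.00 ± 0.22. MYBL2 showed 0.37 ± 0.18 on EGF (adjusted p = 0.14) and 0.01 ± 0.19 on EGF+TGFB (adjusted p = 0.97), beside rises of 4.51 ± 0.24 and 2.80 ± 0.23 where no EGF was present. Adding OSM raised SOCS3, SERPINB4, SERPINA1 and SNAI1 and lowered SPRR1B on all 4 backgrounds, each past the test, and raised MYBL2 past the test only where EGF was absent.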

How the data were processed

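Polyadenylated RNA of MCF10A cells was sequenced with a stranded kit, per the labels' protocols, and the authors deposited 1 table of estimated counts per gene, whole numbers, for all 27 samples (3 in each of 9 groups). The submitters' processing notes name Trim Galore 0.4.3, cutadapt 1.10, FastQC 0.11.5, kallisto 0.46.2, R 3.5.0 and the builds GRCh38.p5 and hg38, without their roles; the annotation version is not given in the sources used here. If kallisto made the counts, near-identical genes share reads by estimate.

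Rows with enough counts by filterByExpr (16611 of 40487) were fitted with edgeR 4.0.16 (TMM scaling, robust quasi-likelihood test, a mean per group over all 27 samples; R 4.3.3, limma 3.58.1) and p-values adjusted by Benjamini-Hochberg over all rows. The script was tested on simulated data. CPM uses TMM-scaled library sizes. Levels are not compared between genes. Intervals and floors cover counting error only. Coordinates came from GENCODE v44 (GRCh38) by Ensembl ID. No exact duplicates were seen: replicates differed by a chi-square of 7.68 to 31.7 per degree of freedom.

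Named genes were the 15 largest rises and 15 largest falls at a mean of 5 CPM or more and with groups that did not overlap, in each list up to 4 called members in each direction and up to 3 not called (all members of the OSM receptor and TGFB ligand lists), the 8 largest differences each way and up to 8 opposite genes, and SOCS3, SERPINB3 and SERPINB4. The members and lists were chosen with earlier results of these data known. Same-numbered OSM+TGFB and TGFB libraries deviated together (r of 0.217, 0.183 and 0.210), which is taken as pairing from the data, not from the labels. The main fit holds no term for this pairing, so its calls and its genes not past the test leave it out. With the replicate block, 9457 rows were called in place of 9011, and 4342 in place of 3565 for the difference. Alternatives were RLE and upper-quartile scaling, no filter, DESeq2 1.42.0, the replicate block, fewer groups, 2 libraries left out, summed rows, each replicate left out and other thresholds. Figures used matplotlib 3.10.9. A few members of the lists are counted but not reported singly here.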

Additional observations from a re-analysis of the deposited data

Results flagged for a closer look

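The effect of OSM differed with and without TGFB in 3565 rows by the test of the difference itself (edgeR's quasi-likelihood test, Benjamini-Hochberg adjusted p under 0.05), and the genes below are those whose difference was named, each with its log2 value, higher with TGFB when positive. OSM raised SLCO2A1 (3.33), LMCD1 (3.05), IL6ST (0.45) and VEGFA (0.76) more on top of TGFB than without it. It lowered KRT1 (3.21), GNAO1 (2.07) and SOCS1 (2.09) less. The falls of TMEM265 (2.57), DENND3 (2.31), CDKN1A (0.71) and HK1 (0.70) with OSM alone did not pass the test on top of TGFB. In alternatives CDKN1A did, lower with OSM, with the replicate block (adjusted p = 0.00103) and with only the compared groups fitted (0.0237). HK1 did with upper-quartile scaling (-0.11, adjusted p = 0.0286). Falls turned into rises for TNS1 (2.26), WNT5A (2.08), PDE4DIP (1.56) and PRDM1 (1.46), and rises into falls for FST (-2.16), ZNF704 (-1.81), SCARA3 (-1.79), NUP210 (-1.68) and CXCL8 (-1.55). EPCAM fell more on top of TGFB (-1.55). The rises were smaller on top of TGFB for KCNJ15 (-3.09), ZBED2 (-2.79), SPOCD1 (-2.71), AMIGO2 (-2.55), P4HA3 (-2.44), THBS1 (-2.14), ADAM19 (-2.14), MYBL2 (-1.71), TNC (-1.34), TGM2 (-1.29), SOCS3 (-1.11) and OSMR (-0.51). TNFRSF6B (-7.43) belongs to the same group by its fitted value, which depends on the prior count since its PBS libraries had 0 counts.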

How the results depend on the processing

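None of the named genes that passed the test changed direction in an alternative that was run. List medians near 0 changed sign when single libraries were left out, with ranges of -0.056 to 0.025 for TGFB ligands, receptors and SMAD factors, -0.004 to 0.197 for matrix proteolysis and -0.053 to 0.195 for MHC class I. The count of changed rows, 9011, lay between 8096 without OSM+TGFB replicate 3 and 9457 with the replicate block, and was 7411 at an adjusted p under 0.01. With the replicate block, 10431 rows were called for OSM against PBS and 4342, in place of 3565, for the difference; the MHC class I list had 5 calls in place of 3, and no other list moved by over 1.5 times. Upper-quartile scaling moved the median of all rows to -0.04 and turned the majority, with 4275 higher and 4826 lower rows. The median of the TGFB-responsive higher rows, 0.62, was 0.64 with RLE scaling, 0.60 with upper-quartile scaling, 0.59 with no filter, 0.65 with DESeq2, 0.64 with the block, 0.69 without OSM replicate 3 and EGF+TGFB replicate 2, 0.66 with rows of a symbol summed, 0.20 with rows chosen by adjusted p alone, and 0.63 to 0.64 leaving out single libraries. For the lower rows, at -0.78, it was -0.75 with RLE, -0.80 with no filter, -0.96 without the 2 libraries, -0.81 with rows summed, -0.054 by adjusted p alone, and -0.78 to -0.63 leaving out single libraries. The OSM-responsive medians were 0.40 and -0.46 by adjusted p alone, 1.24 to 1.35 and -1.53 to -1.44 leaving out single libraries, and -1.59 for the lower rows without the 2 libraries. Endothelial markers, with 4 calls, had 2 with no filter, 2 with only the compared groups fitted and as few as 2 without a library; fibroblast markers had 1 with only the compared groups and 0 to 2 without a library; ribosome biogenesis, with 12, had 7 (without OSM+TGFB replicate 3) to 10. The cause of these shifts was not tested. Of 317 named genes, 263 kept their call in every alternative. The alternatives printed beside a gene are not always all of those in which its call changed. Genes with 3 counts or fewer in a group are limited by depth.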

Other observations

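The markers of other cell types moved in both directions with OSM. Of 6 endothelial markers, CDH5 and CLDN5 had too few counts to test. KDR, the main receptor of VEGFA on endothelium, was at 14.6, 17.6 and 17.2 CPM in the TGFB libraries and at 1.4, 1.12 and 1.57 CPM in the OSM+TGFB libraries, a log2 fold change of -3.59 ± 0.16 (SE), and VWF also fell (-3.45 ± 0.46). TEK (1.23 ± 0.48) and PECAM1 (0.80 ± 0.34) were called higher, at 13 and 42 counts or fewer in a library, and each call was lost without some single libraries (adjusted p up to 0.15 and 0.17). That of TEK was also lost with no filter (0.073) or DESeq2 (0.068). That of PECAM1 was also lost with RLE scaling (0.052), upper-quartile scaling (0.066), no filter (0.074), the replicate block (0.055) or only the compared groups fitted (0.062). Of 8 leukocyte markers, 4 were tested. CD14, a lipopolysaccharide co-receptor of monocytes, was at 13, 17.6 and 16.1 CPM and then at 22.9, 28.9 and 24.6 CPM (0.71 ± 0.18). CD68 rose (0.97 ± 0.08), ITGAM fell (-2.46 ± 0.64), and CSF1R (-0.29 ± 0.14) did not pass the test (adjusted p = 0.078) but did with the replicate block (-0.30, adjusted p = 0.0244). CSF1R also did with upper-quartile scaling (0.0435) and when only the compared groups were fitted (0.000394). The same held without OSM replicate 3 and EGF+TGFB replicate 2 (0.0261). The part of other cells in these values was not tested.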
